A study of Mus musculus with 6 samples.

Results

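The genes for proteins of the cytosolic ribosome were followed here in the infarcted left ventricle of mice with and without Cre in myofibroblasts. A gene was included if its symbol began with Rpl or Rps and a number, or was Rplp0, Rplp1, Rplp2 or Rpsa, and the S6 kinases, whose symbols begin with Rps6k, were left out. This gave 87 of the 17556 genes listed. They comprised 46 genes for proteins of the large subunit, 31 genes for proteins of the small subunit, 7 paralogs (Rpl3l, Rpl7l1, Rpl22l1, Rpl36al, Rpl37rt, Rpl39l and Rps27l), 2 pseudogenes (Rpl31-ps12 and Rpl34-ps1) and Rps19bp1, which encodes a protein that binds Rps19 and is not a ribosomal protein itself. Rpl10l and Rps4l were not analysed here.

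The large subunit forms the peptide bond and the small subunit reads the mRNA. Their proteins are made in matched amounts, and in most cells their mRNAs are among the most abundant. These mRNAs typically begin with a C followed by a run of pyrimidines, the 5′ terminal oligopyrimidine tract, through which the kinase mTOR and the RNA-binding protein Larp1 set how well they are translated. Ribosomal protein mRNAs have been copied back into the genome many times, so that mouse chromosomes hold many processed pseudogenes of nearly the same sequence as their parents. In the heart, ribosome production is known to rise when cardiomyocytes enlarge.

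RNA was measured in whole left ventricles taken 4 dpi (days post injury) from mice aged 6 to 10 weeks whose left anterior descending artery had been tied permanently and which ate a tamoxifen citrate diet from surgery onward. All 6 mice carried floxed Yap on both alleles and floxed Wwtr1 (the gene for TAZ) on 1 allele, bred from Jackson Laboratory lines. The 3 Cre positive mice also had 1 copy of the tamoxifen-activated recombinase MerCreMer under the endogenous Periostin (Postn) promoter, which is active in myofibroblasts, and the 3 Cre negative mice had wildtype Periostin. The Cre was thus directed to Postn-expressing cells, and recombination itself was not measured here. The RNA came from all cells of the ventricle, in which fewer cells of a type and less RNA per cell cannot be told apart. Libraries held 13177888 to 14827579 expected counts, which are counts in which reads shared by several genes are divided among them.

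The gene-level counts did not separate the genotypes at the targeted genes. Yap1 had 1422 to 1550 normalized counts in Cre negative and 1439 to 1618.5 in Cre positive ventricles, and Wwtr1 had 1466 to 1620 and 1562 to 1664. Postn, whose promoter carries the Cre, had 12182 to 26918 and 12708 to 14270. All 8 cardiomyocyte markers were detected in every ventricle. The library of Cre negative 1 stood apart from the other 5: a chi-square of its counts against each of theirs came to 42.5 to 65.6 per gene, where sampling noise alone gives about 1, and to 7.86 to 16.5 between any other pair. Its 8 cardiomyocyte markers summed to 74389 TPM (a transcript level corrected for gene length and library size) against 62630 and 63454 in Cre negative 2 and 3, and its 7 fibroblast markers to 4818 TPM against 7384 to 8701 in the other 5. Its 7 macrophage markers summed to 3060 TPM against 3986 to 4935, and its 5 neutrophil markers to 413 TPM against 48.4 to 156. In Cre positive 1, 2 and 3 the cardiomyocyte markers summed to 57407, 55392 and 61497 TPM, each below every Cre negative ventricle with or without Cre negative 1. All 8 of these markers had a log2 fold change (Cre positive over Cre negative) below 0 on the count scale, with a median of -0.32. The main results for the ribosomal protein genes are given below with and without Cre negative 1. The log2 fold changes of the marker lists are given only with it.

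The sequences of Rpl34 and Rpl34-ps1 are shown here because the parent and the pseudogene are nearly identical, which bears on how their counts are read below. Rpl34, a protein of the large subunit, is at chr3:130726827-130730398, and its pseudogene Rpl34-ps1 is at chr6:71124589-71125001 (both GRCm38.p6, RefSeq). GENCODE M39 lists Rpl34-ps1 as a processed pseudogene of 354 bases, and over that length it matched the Rpl34 coding sequence at 352 bases. The differences were T132C and C318G, with the Rpl34 base first, the position counted from 1 at the first base of the start codon, and the Rpl34-ps1 base last. Neither difference changed the encoded residue. The longest stretch without a difference was 185 bases. The windows below run from position 102 to 162 and from position 288 to 348 of both transcripts, 5′ to 3′, with the base that differs in capitals.
Rpl34, first difference: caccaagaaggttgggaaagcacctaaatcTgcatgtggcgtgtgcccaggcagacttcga
Rpl34-ps1, first difference: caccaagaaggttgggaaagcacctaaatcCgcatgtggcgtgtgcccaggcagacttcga
Rpl34, other difference: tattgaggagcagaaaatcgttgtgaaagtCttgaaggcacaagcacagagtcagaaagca
Rpl34-ps1, other difference: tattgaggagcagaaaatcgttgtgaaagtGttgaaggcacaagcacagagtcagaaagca

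The start sites were searched for the tract that ribosomal protein mRNAs are known for. RefSeq start sites on GRCm38.p6 were found for 66 of the 87 genes by symbol. A run of at least 8 consecutive C or T bases on the gene's own strand, within 15 bases either side of a start site, was present in 27 of the 66 genes (40.9%) and in 13.9% of 27025 genes in the same table. The run included the first transcribed base in 17 of the 66 genes (25.8%) and in 4.59% of all genes. These shares depend on the listed starts, of which some genes have several. Whether transcription begins at those bases was not tested, so the shares do not count the mRNAs that carry the tract. The windows below hold the 15 bases before and the first 15 bases of the transcript, with the longest such run in capitals. Rplp2 (chr7:141447636-141447665, plus strand), Rpl35a (1 of its listed starts, chr16:33056467-33056496, plus strand) and Rpl34 (both listed starts, chr3:130730384-130730413 and chr3:130730323-130730352, minus strand) are shown. Rplp2 and Rpl35a had an unadjusted p under 0.05 by edgeR between the genotypes, and Rpl34 had a log2 fold change of large size. That of Rpl34 was only -0.02 with the counts of Rpl34-ps1 added, as given below. Rps27 (chr3:90213634-90213663, minus strand) is shown beside its paralog Rps27l (chr9:66946071-66946100, plus strand), and Rpl3l (chr17:24727811-24727840, plus strand) is shown because it lacks a run of that length at its listed starts. The run in capitals lies wholly before the transcript in Rps27l and at the upstream start of Rpl34, and it reaches into the transcript in the others that have one.
Rplp2: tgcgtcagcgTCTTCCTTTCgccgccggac
Rpl35a: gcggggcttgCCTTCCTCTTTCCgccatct
Rpl34, upstream start: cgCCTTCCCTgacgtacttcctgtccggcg
Rpl34, downstream start: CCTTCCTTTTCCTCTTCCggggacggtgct
Rps27: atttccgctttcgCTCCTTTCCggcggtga
Rps27l: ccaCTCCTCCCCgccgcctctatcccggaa
Rpl3l: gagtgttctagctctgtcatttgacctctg

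Over the full window of 250 bases before to 50 bases after the start, the ETS motif CCGGAAG, read on both strands, was present in 26 of the 66 genes (39.4%) and in 9.93% of all genes. On the minus strand this motif can overlap the pyrimidine run. The YY1 motif AAGATGG was present in 10 genes (15.2%, against 7.28% of all genes) and the E-box CACGTG in 6 (9.09%, against 8.09%). The motif CATTCC of the TEAD factors, the DNA-binding partners of Yap and TAZ, was present in 7 (10.6%, against 16.6% of all genes). These shares describe letters in the window and not binding.

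The subunit genes were among the highest in the ventricle. Their mean level over the 6 ventricles had a median of 1041 TPM, while the median over all 17556 genes was 9.35 TPM. Of the 77 subunit genes, 75 were over 100 TPM and 41 were over 1000 TPM. The highest was Rpl41, a peptide of the large subunit, with 3014, 3841 and 4225 TPM in Cre negative ventricles 1, 2 and 3 and 3766, 3679 and 3822 TPM in Cre positive ventricles 1, 2 and 3. It was followed by Rps2 of the small subunit (mean 2657 TPM), Rplp1 of the stalk (2602 TPM), Rps26 (2290 TPM) and Rps15 (2137 TPM). Their ranges over ventricles overlapped from each neighbour to the next, except that the lowest Rpl41 value, 3014 TPM, was above every Rps2 value, of which the highest was 2790 TPM.

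The lowest subunit genes by mean TPM were Rps6, the protein phosphorylated by the S6 kinases, Rps15a and Rps20. Rps20 was level with Rpl22 (134.14 against 134.25 TPM), and their ranges over ventricles overlapped. Rps6 had 25.6 to 37.4 TPM and 264 to 395 expected counts, the fewest of the 77 subunit genes and none of them whole numbers within 0.005. Its counts thus include shares of divided reads, so its value alone is uncertain. How its reads were assigned was not tested. The position of Rps15a and Rps20 depended on the length the authors divided by. Rps15a of the small subunit had 44.7 to 65.1 TPM but 1693 to 2674 expected counts, and Rps20 had 119 to 147 TPM and 2995 to 4025 expected counts. The length implied by each gene's counts and FPKM was 5050 bases for Rps15a, 3358 bases for Rps20 and 1304 bases for Rps6, against a median of 636 bases over the subunit genes. Rps15a and Rps20 were singled out here after their values were seen. Among the 77 subunit genes, 20 had a count that was not whole in at least 1 ventricle (26.0%, against 16.3% of all genes), and both pseudogenes did.

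Together the 77 subunit genes and the other 8 genes that are not pseudogenes made up 7.16%, 8.58% and 8.91% of all TPM in Cre negative ventricles 1, 2 and 3, and 8.05%, 8.72% and 8.41% in Cre positive ventricles 1, 2 and 3. The groups overlapped and the lowest value was that of Cre negative 1. The mean sum was 82193 ± 9293 TPM (SD, n = 3) in Cre negative and 83927 ± 3368 TPM (SD, n = 3) in Cre positive ventricles, a difference smaller than the spread between replicates. The log2 ratio of the means was 0.03, and its direction turned to -0.06 without Cre negative 1 and to -0.02 on CPM (expected counts scaled to library size). Of the 77 subunit genes, 70 had their lowest TPM in Cre negative 1, the ventricle with the highest cardiomyocyte and the lowest fibroblast marker sum. On normalized counts, the scale of the tests below, 17 of the 77 were lowest in Cre negative 1 and 28 in Cre positive 1. The part of these cell types in that result was not tested.

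**Figure D1:**
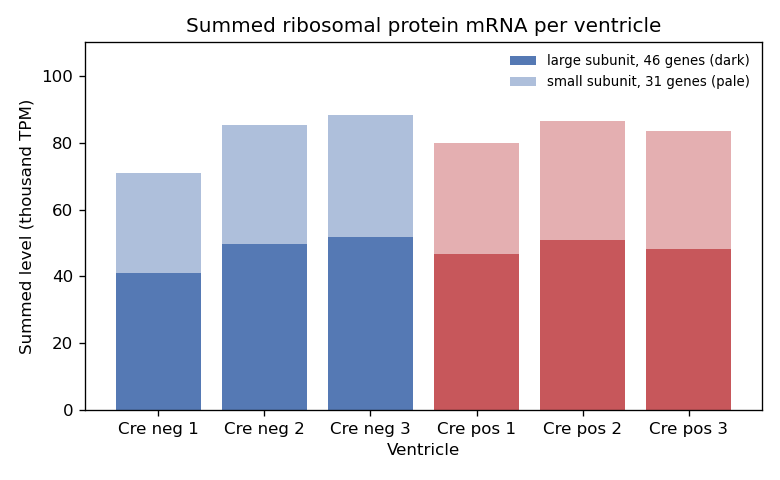
Summed level of the ribosomal protein genes (vertical axis, in units of 1000 TPM) in each ventricle (horizontal axis), with the 46 large subunit genes in the dark and the 31 small subunit genes in the pale part of each bar (Cre negative blue, Cre positive red). Cre negative 1 is the lowest at 70945 TPM for all 77 genes and Cre negative 3 the highest at 88383 TPM, with the Cre positive ventricles between them.

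The ratio between the subunits varied less from ventricle to ventricle than the total did. The large subunit genes summed to 1.38, 1.40 and 1.41 times the TPM of the small subunit genes in Cre negative ventricles, and to 1.40, 1.42 and 1.36 times in Cre positive ventricles. The mean ratio was 1.40 ± 0.0158 (SD, n = 3) and 1.40 ± 0.0288 (SD, n = 3), and the groups overlapped. Within groups, the median coefficient of variation of normalized counts was 4.97% for the subunit genes, 5.30% for 32 translation factors and 11.7% for all 13817 genes tested, most of which had lower counts than the median subunit gene.

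To ask whether the genotypes differed gene by gene, edgeR's quasi-likelihood test was run on the expected counts of all 13817 genes that passed a filter on low counts, with p-values adjusted over all of them. Counts were scaled between libraries by TMM, and the normalized counts below are on that scale, as are the log2 fold changes, which are of Cre positive over Cre negative. Of the 85 genes that are not pseudogenes, 84 were tested, and Rpl39l was not. None of the 84 was called at an adjusted p under 0.05, against a background of 0.00724% of all genes (1 gene, which is no ribosomal gene). The smallest adjusted p among the 84 was 0.714 by edgeR, and DESeq2, whose background was 0.0362% of all genes, called none of them either, with 5 lower (3.53% of all genes) and 0 higher (2.34% of all genes) at an unadjusted p under 0.05. At an unadjusted p under 0.05, 3 of the 84 were lower and 0 higher in Cre positive ventricles, against 2.98% and 2.85% of all genes.

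The differences were small and nearly all of one sign on this scale. The log2 fold change was below 0 for 80 of the 84 genes (95.2%) and for 48.8% of all genes tested, with a median of -0.09 for the 84 and 0.01 for all. Several marker lists of cell types were below 0 as well on this scale: 8 of 8 cardiomyocyte markers (median -0.32), 6 of 6 erythroid markers (median -0.15), 4 of 5 neutrophil markers (median -0.90) and 4 of 7 macrophage markers (median -0.0051). The erythroid markers summed to 15669 to 27381 TPM in Cre negative and 14365 to 25547 TPM in Cre positive ventricles, which overlapped. Neutrophil markers summed to 413 TPM in Cre negative 1 but to 85.9 and 48.4 TPM in Cre negative 2 and 3. In Cre positive 1, 2 and 3 they summed to 156, 66.55 and 128 TPM. The neutrophil median is given only with Cre negative 1. Below 0 were 2 of 7 fibroblast, 2 of 5 endothelial and 0 of 5 lymphocyte markers. The part of these cell types in the values of the 84 genes was not tested. On TPM values, fitted with limma on log2(TPM + 1), the sign turned: the median was 0.04 and only 18 of 84 were below 0, while the median over all genes moved to 0.11, so that the 84 lay 0.07 below all genes on that scale and 0.10 below them on counts. The 95% confidence interval of a gene had a median half-width of 0.23 and included 0 for 81 of the 84 genes. For 16 of the 84 genes (19.0%) every Cre positive ventricle was below every Cre negative ventricle, against 6.85% of all genes, and for 0 of the 84 it was above, against 7.55%. On TPM values the count below was 0 of 84, against 2.44% of all genes.

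Single Cre negative ventricles moved these counts. Over the 77 subunit genes, the median deviation from each gene's mean (log2 of normalized counts) was -0.05, 0.07 and 0.10 in Cre negative ventricles 1, 2 and 3, and -0.05, -0.03 and -0.04 in Cre positive ventricles 1, 2 and 3. Cre negative 1 thus lay with the Cre positive ventricles and the other Cre negative ventricles above them. Without Cre negative 1, 82 of 84 genes were below 0 with a median of -0.13, 16 were lower at an unadjusted p under 0.05 (background 3.01%), and 57 of 84 did not overlap between the groups (background 11.8% of all genes). On TPM values without it, 17 of 84 did not overlap (background 5.57%). Without Cre negative 3 the median was -0.05 and 68 of 84 were below 0. At an unadjusted p under 0.05, 1 of the 84 was lower without Cre negative 2 (background 3.68%) and 1 without Cre negative 3 (background 5.57%). The number was 2 without Cre positive 1 (background 1.84%), 2 without Cre positive 2 (background 0.912%) and 0 without Cre positive 3 (background 1.66%). None of the 84 was called in any of these fits.

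**Figure D2:**
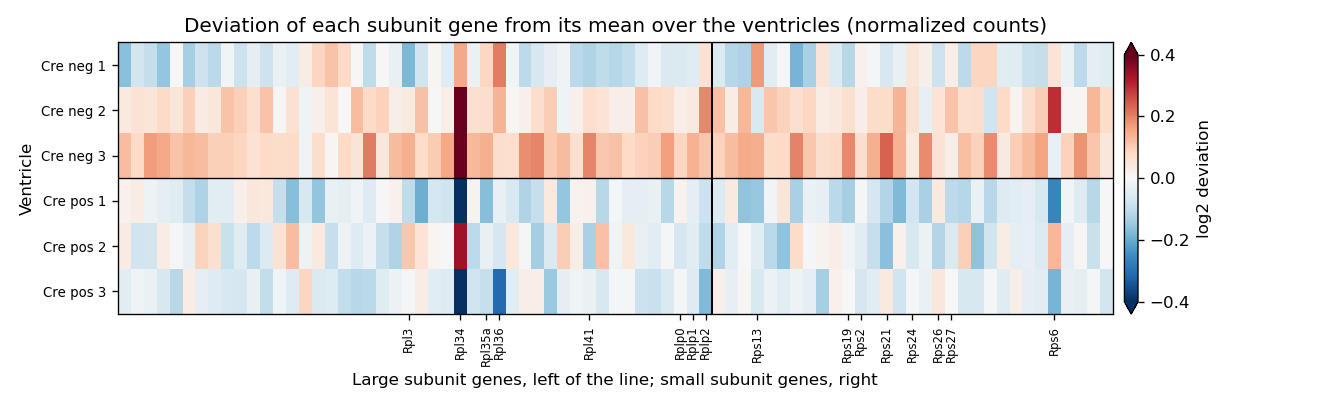
Deviation of each of the 77 subunit genes from its own mean over the ventricles (colour, log2 of normalized counts, limits at -0.4 and 0.4), by ventricle (rows) and gene (columns, a few of them labelled). Cre negative 2 and 3 are mostly red, Cre negative 1 and the Cre positive ventricles mostly pale or blue, and Rpl34 is dark blue in Cre positive 1 and 3 and red in the other 4.

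By subunit, all 31 small subunit genes and 44 of the 46 large subunit genes were below 0 on the count scale, which the TPM scale did not share. The median log2 fold change was -0.10 for the small and -0.08 for the large subunit genes. Every Cre positive ventricle was below every Cre negative ventricle for 6 of 31 and 10 of 46 genes, against 6.85% of all genes, and for 0 of either on TPM values. Leaving out Cre negative 1 gave medians of -0.13 for both.

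**Figure D3:**
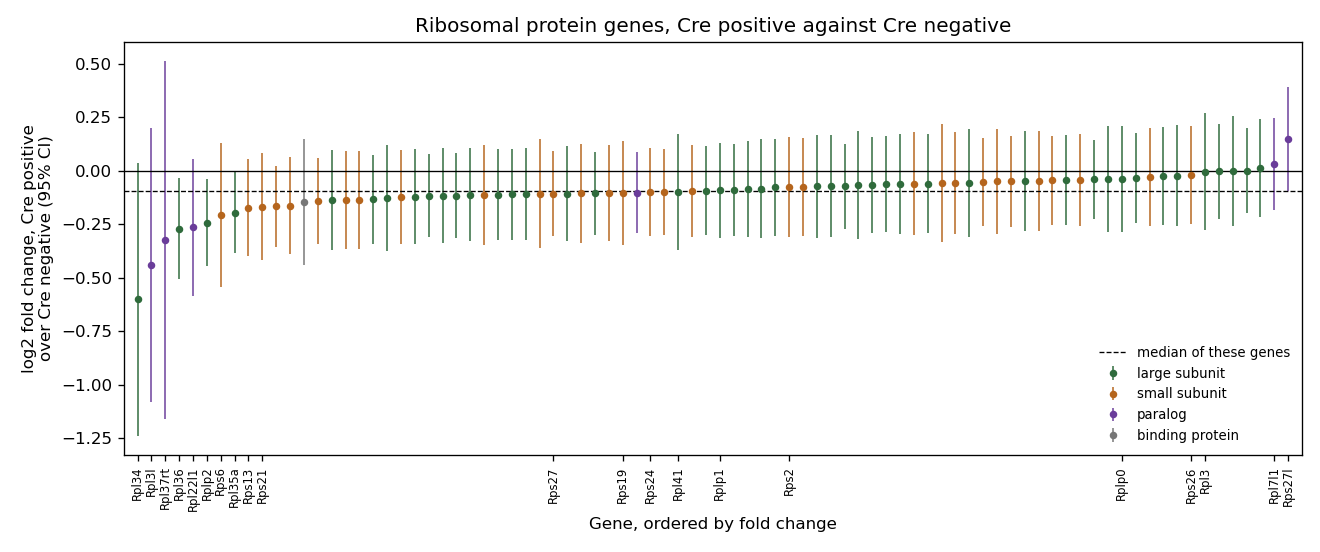
Log2 fold change of Cre positive over Cre negative ventricles (vertical axis, points with 95% confidence intervals from edgeR) for the 84 genes tested that are not pseudogenes (horizontal axis, ordered by value and coloured by class, a few of them labelled), with a dashed line at their median of -0.09. The points run from -0.60 for Rpl34 to 0.15 for Rps27l, and 81 of the 84 intervals include 0.

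The 3 genes with an unadjusted p under 0.05 all belong to the large subunit. Rpl36 had 2277, 2172 and 2077 normalized counts in Cre negative ventricles 1, 2 and 3 and 1935, 1885 and 1594 in Cre positive ventricles 1, 2 and 3. The groups did not overlap, and Cre positive 3 was the lowest. Its log2 fold change was -0.27 (SE 0.10, unadjusted p = 0.0307, adjusted p = 0.714 by edgeR). Rplp2, which forms the stalk that recruits translation factors together with Rplp0 and Rplp1, had 3665, 4024 and 3803 normalized counts in Cre negative and 3319, 3284 and 3115 in Cre positive ventricles. The groups again did not overlap, with a log2 fold change of -0.24 (SE 0.09, unadjusted p = 0.0249, adjusted p = 0.714 by edgeR). Rpl35a, one of the genes mutated in Diamond-Blackfan anaemia, had 1949, 1934 and 2034 normalized counts in Cre negative and 1636, 1806 and 1727 in Cre positive ventricles, also without overlap. Its log2 fold change was -0.20 (SE 0.08, unadjusted p = 0.0466, adjusted p = 0.714 by edgeR). An exact two-sided permutation test of 3 ventricles against 3 gives p = 0.1 for each gene whose groups do not overlap, the smallest it can give.

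Both other stalk proteins had values nearer to 0, with intervals that include the value of Rplp2, and the difference from Rplp2 was not tested. Rplp0, the base of the stalk, had 19212, 20380 and 21230 normalized counts in Cre negative and 20218, 19110 and 19944 in Cre positive ventricles, which overlapped (log2 fold change -0.04, 95% interval -0.28 to 0.21). Rplp1 had 7473, 7940 and 8511 normalized counts in Cre negative and 7516, 7492 and 7456 in Cre positive ventricles (log2 fold change -0.09, 95% interval -0.31 to 0.13). Its Cre positive values lay close together, near that of Cre negative 1. Rpsa, the small subunit protein also known as the laminin receptor, had 18882 to 19866 normalized counts in Cre positive ventricles, inside or below the range of 19210 to 20895 in Cre negative ventricles (log2 fold change -0.05, 95% interval -0.29 to 0.20).

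Among the other genes of Diamond-Blackfan anaemia, Rps24 also had groups that did not overlap. It had 8011, 8091 and 7965 normalized counts in Cre negative and 7349, 7412 and 7712 in Cre positive ventricles, a difference of -0.10 on the log2 scale (95% interval -0.31 to 0.11). Rps19, the gene most often mutated in that disease, had 2515, 2842 and 3106 normalized counts in Cre negative and 2480, 2691 and 2718 in Cre positive ventricles, which overlapped (log2 fold change -0.10, 95% interval -0.34 to 0.14). Rps7, Rps10, Rps26, Rpl5 and Rpl11 had log2 fold changes of -0.05, -0.10, -0.02, -0.04 and -0.08, and their groups overlapped. Rpl5 and Rpl11, which hold Mdm2 when ribosome assembly fails, had counts that were not whole in all 6 ventricles. The adjusted p of these genes was at least 0.714 by edgeR.

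Among genes with other roles, Rps6 had 327, 388 and 309 normalized counts in Cre negative and 263, 347 and 278 in Cre positive ventricles, which overlapped (log2 fold change -0.21, 95% interval -0.54 to 0.13). The counts of Rps6 were not whole in any ventricle, and how its reads were assigned was not tested. Rps13 and Rps21 of the small subunit had log2 fold changes of -0.17 each, with overlapping groups. Rps3, which lines the mRNA entry channel, had -0.05, and Rpl13a, a common reference gene in quantitative PCR, had -0.07 with 6653 to 7995 normalized counts in Cre negative and 6832 to 7458 in Cre positive ventricles. Rps19bp1, the binding protein, had 150 to 162 and 134 to 153 normalized counts (log2 fold change -0.15, 95% interval -0.44 to 0.15). These values all carried adjusted p-values of at least 0.714 by edgeR.

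Rpl34 and Rpl34-ps1 departed from the rest. Rpl34 had 1941, 2769 and 2922 expected counts in Cre negative ventricles 1, 2 and 3 and 1245, 2817 and 1360.5 in Cre positive ventricles 1, 2 and 3. Rpl34-ps1 had 20.1, 7.16 and 10.7 expected counts in Cre negative and 1149, 25.4 and 1494 in Cre positive ventricles. Cre positive 1 and 3 were therefore low for the parent and high for the pseudogene, while Cre positive 2 resembled the Cre negative ventricles in both. Rpl34-ps1 took 48.0% of the counts of the pair in Cre positive 1 (95% Wilson interval 46.02 to 50.02) and 52.3% in Cre positive 3 (50.5 to 54.2). It took 0.894% in Cre positive 2 (0.597 to 1.30), and 1.03% (0.661 to 1.57), 0.258% (0.122 to 0.520) and 0.366% (0.210 to 0.670) in Cre negative 1, 2 and 3. These intervals cover counting error only.

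The sum of the pair did not follow this split. It came to 2310, 2729 and 2854 normalized counts in Cre negative and 2387, 2629 and 2792 in Cre positive ventricles, with means of 2631 ± 285 and 2602.5 ± 204 (SD, n = 3 each). With the counts of the pair added before the fit, the log2 fold change was -0.02 (SE 0.11, adjusted p = 0.9745 by edgeR). Taken alone, Rpl34 had a log2 fold change of -0.60 (SE 0.27, adjusted p = 0.714 by edgeR), the largest in size among the 84 genes. The GENCODE M39 transcripts of the pair differ at T132C and C318G over the 354 bases compared, while the authors counted on GRCm38.p6. The counts of each row can depend on how the authors' counting divided shared reads, and the values of each alone are uncertain. How well reads were assigned to either was not tested.

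Rpl34-ps1 alone had the widest difference, with 23.6, 6.88 and 10.7 normalized counts in Cre negative and 1146, 23.1 and 1462 in Cre positive ventricles. The groups overlapped, since Cre positive 2 lay below Cre negative 1. Its log2 fold change was 6.03 (SE 1.39, 95% interval 2.79 to 9.27, unadjusted p = 0.00280, adjusted p = 0.714 by edgeR). It was the only pseudogene tested, and 1 of 1 had an unadjusted p under 0.05, against 2.85% of all genes that were higher at that limit. It was called by DESeq2 (adjusted p = 0.0268, background 0.0362% of all genes, itself among them) and by edgeR without Cre positive 2 (adjusted p = 0.00751). In that fit Rpl34-ps1 was the only gene called, which makes up the whole background of 0.00724% of all genes. The ventricle left out there was the Cre positive one without a high count. Over all alternatives the adjusted p of Rpl34-ps1 ran from 0.00751 to 0.898, and in none of them did the sign change. Without Cre positive 2, Rpl34 itself had a log2 fold change of -1.02 (SE 0.13, adjusted p = 0.885 by edgeR).

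The other pseudogene, Rpl31-ps12 (chr16:16819713-16820196, GRCm38.p6), did not pass the filter. It had 6.86, 10.5 and 5.24 expected counts in Cre negative and 3.67, 12.7 and 3.47 in Cre positive ventricles, and the groups overlapped. Its parent Rpl31 had 3368 to 4352 and 3775 to 4290 expected counts, with a log2 fold change of -0.07 (95% interval -0.27 to 0.13). No division between parent and pseudogene like that of Rpl34 was therefore seen for this pair.

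**Figure D4:**
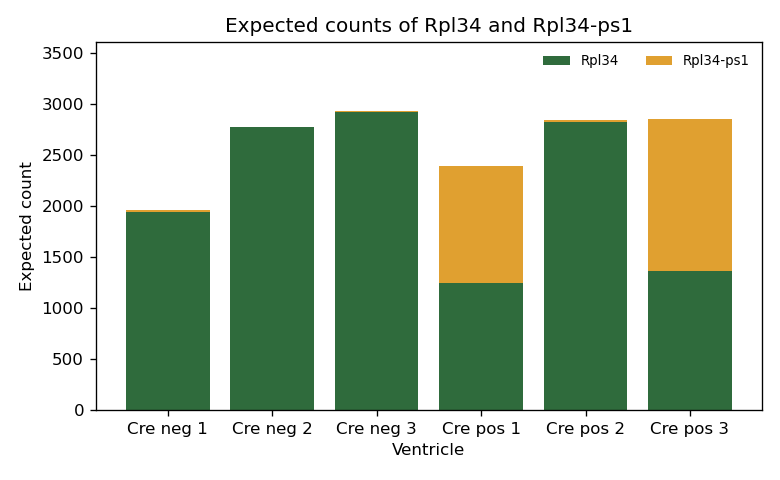
Expected counts (vertical axis) of Rpl34 (green) and Rpl34-ps1 (yellow, stacked on top) in each ventricle (horizontal axis). Rpl34-ps1 fills 48.0% and 52.3% of the bar in Cre positive 1 and 3 and at most 1.03% in the other 4 ventricles.

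The paralogs are copies of ribosomal protein genes, and some of them can take the parent's place in the ribosome in some tissues. Of the 7 paralogs 6 were tested, none was called, and 4 of the 6 were below 0. Rpl3l, which replaces Rpl3 in striated muscle, had 173, 104 and 115 TPM in Cre negative and 124.5, 78.0 and 114 TPM in Cre positive ventricles. Its level was highest in Cre negative 1 and lowest in Cre positive 2. Rpl3 had 480 to 671 TPM in Cre negative and 568 to 710 TPM in Cre positive ventricles, which overlapped. The cardiomyocyte marker sum was likewise highest in Cre negative 1 and lowest in Cre positive 2, with all Cre positive below all Cre negative ventricles, and its part in the values of Rpl3l was not tested. Rpl3l had a log2 fold change of -0.44 (SE 0.28, adjusted p = 0.714 by edgeR), which was -0.11 without Cre negative 1, -0.24 without Cre positive 2 and between -0.61 and -0.49 without any of the other 4 ventricles in turn. Rpl3 had a log2 fold change of -0.0044, with a 95% interval of -0.28 to 0.27 and a sign that turned in some alternatives.

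Rps27l, a paralog of Rps27 known as a target of p53, was the gene with the highest log2 fold change of the 84. It had 433, 404 and 464 normalized counts in Cre negative and 494, 515 and 433 in Cre positive ventricles, which overlapped through Cre positive 3 (log2 fold change 0.15, 95% interval -0.09 to 0.39, adjusted p = 0.721 by edgeR). Rps27 had 3583, 3818 and 3589 normalized counts in Cre negative and 3280, 3393 and 3534 in Cre positive ventricles, which did not overlap (log2 fold change -0.11, 95% interval -0.31 to 0.09). In level the parent was far above the paralog, at 1564 to 1873 TPM against 113 to 164 TPM.

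Rpl22l1, the paralog of Rpl22, had 237, 186 and 237 normalized counts in Cre negative and 184, 191 and 173 in Cre positive ventricles, with an overlap at Cre negative 2 (log2 fold change -0.26, 95% interval -0.58 to 0.06). Rpl22 had -0.06 (95% interval -0.30 to 0.17). Rpl36al was at 282 to 352 TPM and its parent Rpl36a on the X chromosome at 452 to 575 TPM, with log2 fold changes of -0.10 and -0.04. Rpl7l1 was at 31.7 to 44.1 TPM with a log2 fold change of 0.03 (-0.02 without Cre negative 1), and that of Rpl7 was -0.0028. Rpl37rt, a retrotransposed copy of Rpl37, had only 7.68 to 12.9 expected counts, none of them whole, beside 1590 to 2356 for Rpl37, and its log2 fold change was -0.32 (95% interval -1.16 to 0.51). Rpl39l, known for its role in the testis, had 1 to 5 expected counts in each ventricle, near the limit that a count of 0 allows (3 counts), and no difference was detectable at this depth.

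**Figure D5:**
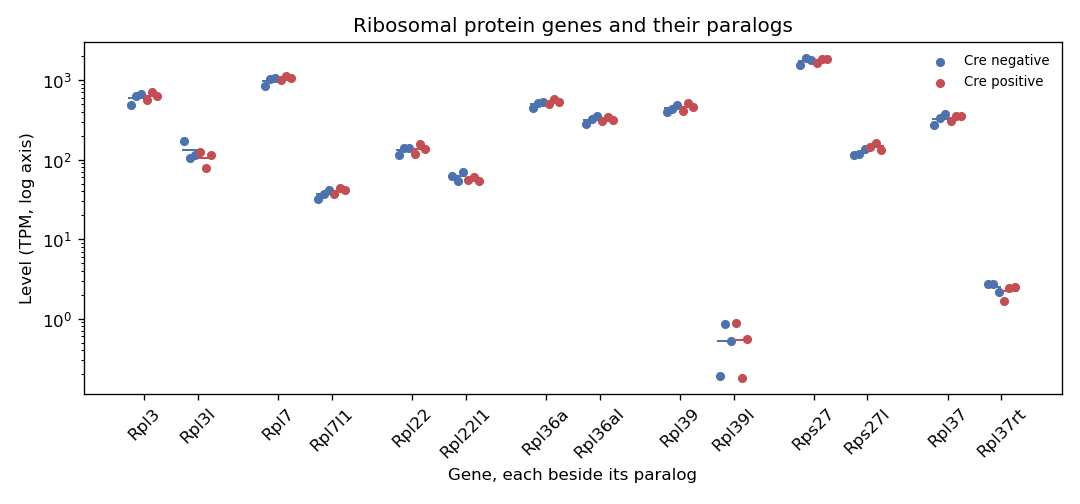
Level of 7 ribosomal protein genes and of the paralog of each (horizontal axis, pairs side by side) in TPM (vertical axis, log scale), with a point per ventricle and a line at each group's mean (Cre negative blue, Cre positive red). Rpl3l is highest at 173 TPM in Cre negative 1, Rpl39l lies below 1 TPM, and the groups lie on top of each other in most pairs.

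Ribosomal proteins whose names the rule does not catch had values in the same range. Fau, whose ribosomal protein is made fused to a ubiquitin-like domain, had a log2 fold change of -0.17, and Rack1, a scaffold on the small subunit, had -0.03. Neither was called, and the groups of both overlapped.

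The genes for mitochondrial ribosomal proteins, which serve the separate ribosome of the mitochondrion, moved with Cre negative 1 in the opposite way. All 78 were tested, 0 were called, and 78 of 78 were below 0 on the count scale with a median log2 fold change of -0.21. All 8 cardiomyocyte markers were also below 0, with a median of -0.32 and every Cre positive marker sum below every Cre negative one, and their part in the values of the mitochondrial list was not tested. At an unadjusted p under 0.05, 7 of 78 were lower (2.98% of all genes), and 16 of 78 had Cre positive ventricles all below Cre negative ventricles (6.85% of all genes). The lowest value was that of Mrps35, with -0.43 (SE 0.16, adjusted p = 0.714 by edgeR). The median deviation of the 78 genes was 0.34 in Cre negative 1, where the cardiomyocyte markers were also highest, and between -0.15 and -0.0017 in the other 5 ventricles, and without Cre negative 1 the median fold change was -0.09 with 69 of 78 below 0. For the cytosolic genes the same step took the median further from 0, to -0.13.

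The lists around ribosome production gave 0 calls as well. Of 32 ribosome assembly genes, 7 were below 0, the median log2 fold change was 0.09, and 3 were higher at an unadjusted p under 0.05 (2.85% of all genes). These were Heatr1 (0.39, SE 0.12), Nop56 (0.35, SE 0.12) and Utp20 (0.30, SE 0.12), which act early in processing the ribosomal RNA precursor. Without Cre negative 1 the median of the list was 0.06. The 9 RNA polymerase I genes, which serve transcription of ribosomal RNA, had a median of 0.01, and 3 were below 0. The 32 translation factors, whose mRNAs often share the pyrimidine tract, had a median of -0.02, with 19 below 0. Every Cre positive ventricle was below every Cre negative ventricle for 6 of these 32 genes (6.85% of all genes) and above for 1 (7.55%), so that such a count was not particular to the ribosomal protein genes, of which 16 of 84 were below. For the ribosome assembly genes the count was 0 of 32 below and 5 of 32 above.

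Of the 9 regulators of ribosomal protein synthesis, Myc, a transcription factor for ribosome genes, had a log2 fold change of 0.31 (SE 0.11) and Rps6kb2, an S6 kinase, -0.23 (SE 0.09), both with an adjusted p of 0.714 by edgeR. Myc had 424 ± 54.4 normalized counts in Cre negative and 526 ± 12.9 in Cre positive ventricles (SD, n = 3 each). Mtor and Larp1, which act through the pyrimidine tract, had -0.16 (SE 0.13) and 0.12 (SE 0.08).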

How the data were processed

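The authors deposited 1 table with expected counts (estimated read counts, not normalized), FPKM and TPM for 17556 genes in the left ventricles of 3 Cre negative and 3 Cre positive mice. The submitters' processing notes name Bowtie2 2.2.5, RSEM 1.2.12 and the build GRCm38.p6. The deposited FPKM values served only to derive the gene length they imply, and the deposited TPM values give levels. RSEM divides reads shared by similar transcripts, which bears on genes with pseudogenes. A separate deposited table holds the authors' DESeq2 comparison (log2 fold changes, p-values and q-values) and was not used. Genotype, surgery and diet are as the labels and the series' design text give them.

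Expected counts were rounded and tested in R 4.3.3 with edgeR 4.0.16 (quasi-likelihood, TMM, filterByExpr at its limits of 10 counts and 15 in total, no covariate, Benjamini-Hochberg adjustment over 13817 genes), after a test on simulated data. Normalized counts are TMM-scaled to the mean effective library size of 14293745. P-values measure the spread between these ventricles. Alternatives used DESeq2 1.42.0, limma 3.58.1 on log2(TPM + 1) and left-out libraries. The genes, lists and tests were chosen with earlier results of these data known. Genes named are the 10 with the largest fold changes, the 5 highest and 5 lowest by TPM, stalk, paralog and Diamond-Blackfan genes, and any gene called in an alternative. Positions and start sites are from RefSeq (GRCm38.p6), matched by gene number for all 87 genes and by symbol for the 66 with start sites, and transcripts are from GENCODE M39 by name. Some genes of these lists are not reported here by name.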

Additional observations from a re-analysis of the deposited data

How the results depend on the processing

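No cytosolic ribosomal protein gene was called in any alternative: other size factors, TMM without the ribosomal genes, no filter, a limit of 50 on the mean count, DESeq2, limma on TPM, the replicate block, summed parents and pseudogenes, each ventricle left out, and an adjusted p under 0.1. Pseudogenes called rose from 0 to 1 (Rpl34-ps1) with DESeq2 and ranged from 0 to 1 with 1 ventricle left out. All genes called were 1, and 5 with DESeq2, 2 with limma on TPM, 0 with the replicate block and 0 to 2 with 1 ventricle left out. The median log2 fold change of the cytosolic ribosomal protein genes was 0.039 with limma on TPM, where the median of all genes was 0.11. The median over pseudogenes was 2.89 without a filter, which adds Rpl31-ps12 to Rpl34-ps1, and summing parents and pseudogenes leaves no pseudogene to test. Chosen after seeing the data were counts of groups that do not overlap, which were 57 without Cre negative 1 and 0 on TPM against 16, and the medians of pathway lists without Cre negative 1.

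Some genes near 0 changed sign. Relative to the median of all genes, limma on TPM gave 0.0198 for Rpl10, 0.0103 for Rpl3, 0.0128 for Rpl7 and 0.0027 for Rps26. Rpl10 was 0.0014 unfiltered, 0.0026 under the limit of 50 on the mean count and 0.0043 with the replicate block, and Rpl7 was 0.00018 under that limit. With 1 ventricle left out, Rpl10 ran from -0.0823 to 0.0634, Rpl22 from -0.14 to 0.00491, Rpl3 from -0.0932 to 0.068, Rpl5 from -0.107 to 0.00643, Rpl7 from -0.0544 to 0.0369, Rpl7l1 from -0.0185 to 0.102 and Rps26 from -0.0677 to 0.0329. Other genes kept their sign but moved in size. Over all alternatives Rps6 ran from -0.335 to -0.104, Rps19 from -0.181 to -0.0267 and Rps21 from -0.240 to -0.0861.

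Replicate numbers are shared by the groups, but the labels do not say that a number marks a common litter or batch. Deviations of same-numbered ventricles correlated at 0.342, 0.0582 and -0.0313, against -0.359 to 0.343 for different numbers, so the numbers were not taken as pairs. With the replicate block, the cytosolic ribosomal protein genes had a median of -0.09, 0 were called, and Rpl34-ps1 had an adjusted p of 0.132 by edgeR.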
